A study of Mus musculus with 8 samples.

Results

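The genes of lysosomal enzymes and membrane proteins were followed in liver of mice without Pemt (Pemt-/-) and mice with it (Pemt+/+), all on a high fat-high sucrose (HFHS) chow. The set held 36 genes chosen by name, with earlier results of these data known. They comprised cathepsins and other proteases, glycosidases and a sulfatase, proteins that handle lipids, subunits of the vacuolar proton pump, and membrane proteins together with the transcription factor Tfeb. All 36 genes had at least 1 Affymetrix probe set (a group of short probes read out as 1 value) annotated to that gene alone. They had 78 such probe sets among the 45037 probe sets of the array, which covered 18193 genes in all. A gene was read by its probe set with the highest mean over the 8 arrays, and its other probe sets are given where their call or direction differed.

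Pemt-/- mice lacked Pemt, which encodes phosphatidylethanolamine N-methyltransferase, the enzyme that makes phosphatidylcholine from phosphatidylethanolamine in hepatocytes. Their Pemt+/+ counterparts carried the intact gene and ate the same chow, and no group on standard chow was measured by array. Each genotype had 4 arrays, 1 at each of 1, 2, 3 and 4 weeks of HFHS chow, made from total RNA of whole liver. The methods describe male mice and name no tissue-restricted deletion. They name as many mice per genotype as there are arrays without tying them to arrays, and the labels do not say whether an array held RNA of 1 mouse or of several. The sources used here do not give the strain or the age at the start of the diet. The p-values below therefore rest on single arrays of different weeks. For the genotype difference they measure how the difference between the arrays of a week varied from week to week. That spread includes any change over the weeks of chow, and part of it may be technical.

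Values are linear intensities as deposited, scaled by the authors so that the trimmed mean was 500 on every array, and the array medians lay between 74.0 and 81.5. The upper quartile was 387 to 426 on the Pemt-/- arrays and 365 to 373 on the Pemt+/+ arrays. Pemt itself had 237, 203, 201 and 255 at weeks 1 to 4 in Pemt-/- liver, against 5490, 4990, 5640 and 6050 in Pemt+/+ liver, which was 23.2-fold lower in Pemt-/- (limma, adjusted p = 5.00e-07). The labelled tissue was borne out by 11 hepatocyte markers, whose summed intensity was 326000 to 401000 on the Pemt-/- arrays and 446000 to 473000 on the Pemt+/+ arrays. The summed intensity of 20 macrophage markers was 41400 to 57800 on the Pemt-/- arrays and 17500 to 24800 on the Pemt+/+ arrays, and 17 of the 19 tested were higher in Pemt-/- (12.6% of all genes tested). Trem2 and Mmp12 passed the filter on dim probe sets only through Pemt-/-, and without them 15 of 17 were higher. Macrophages are rich in lysosomes, and their part in the values below was not tested. In whole liver, fewer cells of a type and less RNA per cell cannot be told apart.

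Lysosomes are acidic organelles in which proteases, glycosidases, lipases and sulfatases break down material that arrives by endocytosis, phagocytosis or autophagy. The vacuolar proton pump keeps the lumen acidic, heavily glycosylated membrane proteins such as Lamp1 and Lamp2 line it, and transporters release the products. In liver, hepatocytes use lysosomes to turn over glycogen, lipid droplets and lipoproteins taken up from blood, and Kupffer cells and recruited macrophages use them to digest engulfed cells and lipid. Many lysosomal genes are known to respond together to Tfeb and its relatives Tfe3 and Mitf, which bind a palindromic element with CACGTG at its core.

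To count the members that hold this core near their start, promoters were read from RefSeq (build GRCm38.p6), taking 250 bases before to 50 bases after each start. A promoter was listed for 29 of the 36 genes. Asah1, Atp6v0d2, Atp6v1b2, Ctsb, Ctsh, Galns and Npc1 are named only. CACGTG, which reads the same on both strands, was present in 11 of the 29 genes (37.9%), against 8.09% of all 27025 genes with a listed promoter. With a T before it, TCACGTG on either strand, an overlapping and stricter match, was present in 10 of the 29 (34.5%), against 4.29% of all genes. Ctsd, Gla and Mcoln1 each held 2 cores, and the one nearer the start is shown. Lamp1 held 4 cores, of which the last 2 are in the stretch shown. Ctsa, which is not shown, held 2 cores in 1 of its 2 listed promoters. Lgmn had 2 listed promoters, of which 1 held the core. The stretches below are shown for 4 genes whose intensity was higher in Pemt-/- and for 3 genes that did not pass the test. The capitals mark the CACGTG core.
Ctsd, chr7:142387903-142387942, minus strand, core from base -98: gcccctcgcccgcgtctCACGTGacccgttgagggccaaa
Lgmn, chr12:102439119-102439158, minus strand, core from base -49: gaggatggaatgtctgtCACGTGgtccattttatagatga
Gla, chrX:134601177-134601216, minus strand, core from base -194: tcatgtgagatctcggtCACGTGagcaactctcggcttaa
Atp6v1a, chr16:44139368-44139407, minus strand, core from base -131: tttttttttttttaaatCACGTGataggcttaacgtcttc
Lamp1, chr8:13159129-13159160, plus strand, last core from base -15: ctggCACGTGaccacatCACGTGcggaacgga
Mcoln1, chr8:3500457-3500496, plus strand, core from base -45: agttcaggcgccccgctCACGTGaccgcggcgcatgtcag
Glb1, chr9:114401013-114401052, plus strand, core from base -48: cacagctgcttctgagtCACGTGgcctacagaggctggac

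The core was found in 4 of the 9 members with a listed promoter that were higher in Pemt-/- (Ctsd, Lgmn, Gla and Atp6v1a) and in 7 of the 18 that were tested and not called. Ctsk, Gusb, Hexa, Npc2 and Psap, all higher in Pemt-/- liver, did not hold these letters in this window, nor did Lamp2, the gene that was lower. The letters describe the sequence and say nothing of binding in these livers.

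In Pemt-/- liver, 14 of the 35 tested members were higher and 1 was lower, and the other 20 did not pass the test. Over all 12949 genes tested, each by 1 probe set, 12.6% were higher and 7.51% were lower. Tfeb was too dim to be tested, with 79.6, 60.6, 17.3 and 40.8 on the Pemt-/- arrays and 31.0, 7.12, 129 and 51.7 on the Pemt+/+ arrays, values without an order between genotypes. The median fitted difference of the members was 0.37 on the log2 scale (Pemt-/- minus Pemt+/+), beside 0.0164 for all genes, and 28 of 35 differences were above 0, beside 51.9% of all genes. All 35 tested members passed the filter on dim probe sets with their Pemt+/+ mean alone, so none was tested only because it was high in Pemt-/-. Among the 14 higher members the fold ran from 1.29 (Ctsb) to 3.59 (Atp6v0d2), with a median of 1.75.

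In 16 members all 4 Pemt-/- arrays lay above all 4 Pemt+/+ arrays (15.2% of all genes did so), and in 2 members, Lamp2 and Scarb2, they all lay below (10.4% of all genes). Each difference depends on how the arrays were put on a common scale. Centring every array on the median of the tested probe sets, a setting chosen after seeing the data, moved the median of all probe sets tested to -0.14 from 0.0177, and 10 members were then higher and 2 lower. Over all 27022 probe sets the split was 1977 higher and 3280 lower under that centring, against 2788 higher and 1584 lower with the authors' scale.

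**Figure D1:**
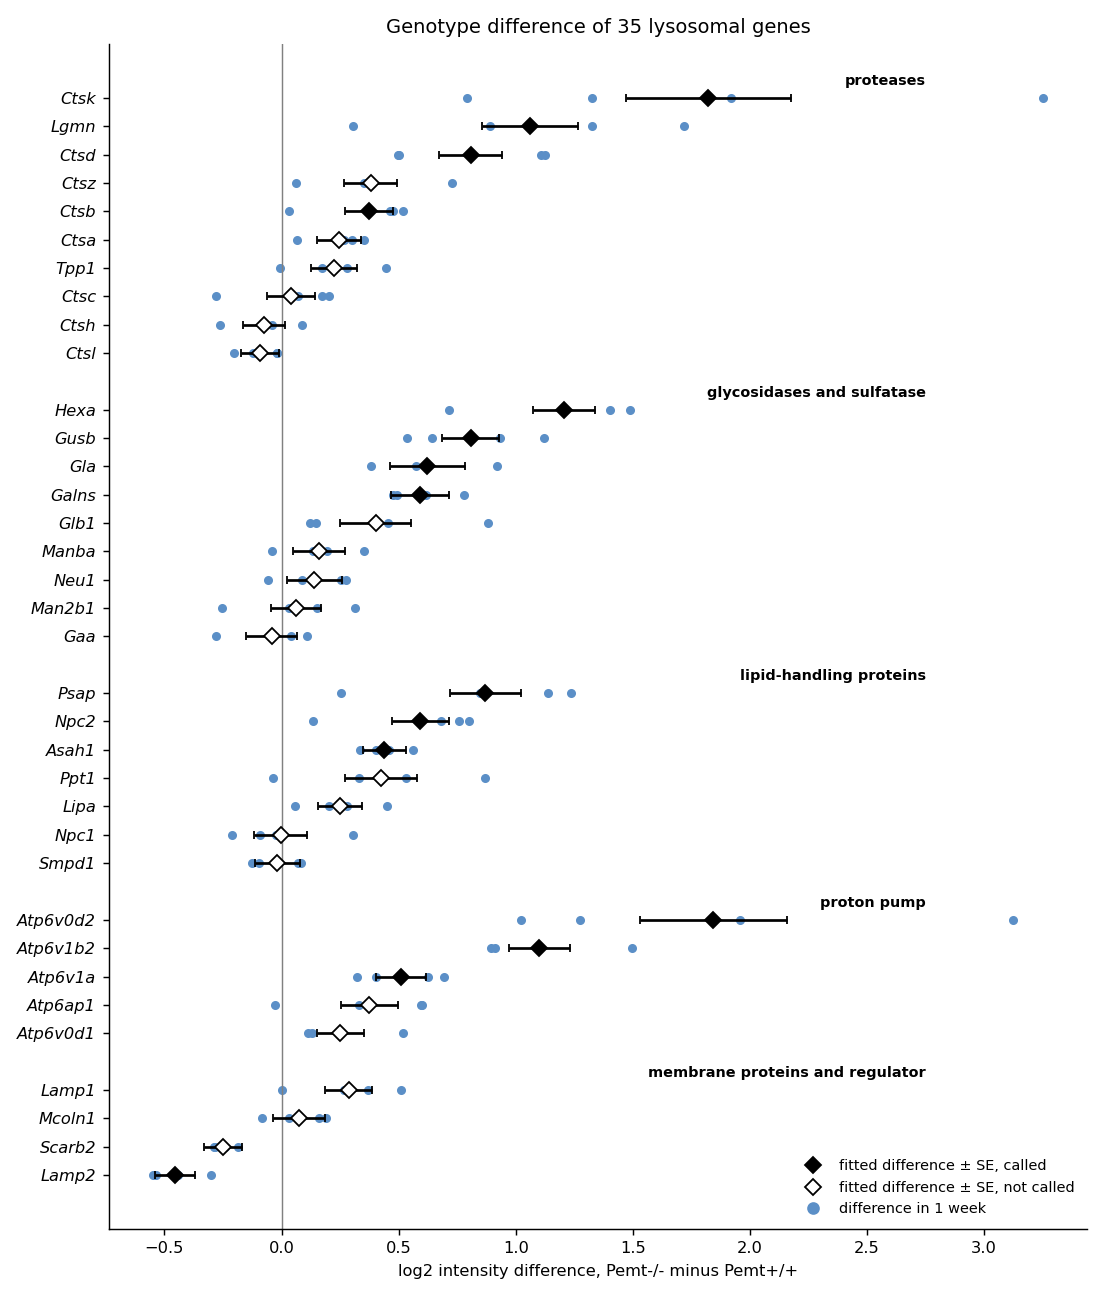
Fitted log2 difference of intensity, Pemt-/- minus Pemt+/+, for the 35 tested members grouped by role. Diamonds give the fitted value with its SE (filled where the adjusted p was under 0.05), dots the difference of the single pair of arrays in each week, and the dots of Ctsk and Atp6v0d2 spread furthest while those of Lamp2 all lie below 0.

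Among the 10 proteases, Ctsd, Ctsk, Lgmn and Ctsb were higher in Pemt-/- liver and 6 did not pass the test, and the median difference of the 10 was 0.31. Ctsd (probe set 1448118_a_at), the main aspartic protease of lysosomes, had 5800, 6200, 8940 and 9210 at weeks 1 to 4 in Pemt-/- liver, against 4090, 4390, 4100 and 4260 in Pemt+/+ liver. Every Pemt-/- array lay above every Pemt+/+ array, and weeks 3 and 4 were the higher ones in Pemt-/-. The fitted difference of Ctsd was 0.81 ± 0.13 (log2, SE), 1.75-fold (limma, adjusted p = 0.00556).

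Lgmn (1448883_at), the asparaginyl endopeptidase that trims several cathepsins to their mature chains, had 1240, 827, 1470 and 1760 in Pemt-/- liver, against 660, 666, 435 and 690 in Pemt+/+ liver. The genotypes did not overlap, although week 2 was the low week of Pemt-/- and week 3 was well under the other Pemt+/+ weeks. Its difference was 1.06 ± 0.21, 2.09-fold (adjusted p = 0.0104). The macrophage marker sum was also lowest at week 2 in Pemt-/- (41400) and at week 3 in Pemt+/+ (17500). The sums of stellate cell, neutrophil and cholangiocyte markers were lowest at the same weeks. A link between any of these sums and Lgmn was not tested.

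Ctsk (1450652_at), a collagen-degrading cysteine protease best known from osteoclasts, had 231, 187, 365 and 303 in Pemt-/- liver, against 82.7, 101, 24.0 and 68.2 in Pemt+/+ liver. It was dim throughout in Pemt+/+, so its ratio moved widely, between 1.85 at week 2 and 15.2 at week 3, where the Pemt+/+ value was under the level at which probe sets were kept for testing. The fitted difference was 1.82 ± 0.35, 3.54-fold (adjusted p = 0.0104), and all Pemt-/- arrays were above all Pemt+/+ arrays.

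Ctsb (1417490_at), a cysteine protease abundant in liver, had 11700, 13700, 14200 and 14600 in Pemt-/- liver, against 11500, 9930, 10200 and 10200 in Pemt+/+ liver. At week 1 the genotypes were nearly level (ratio 1.02), and the gap came with the later weeks. Its difference of 0.37 ± 0.10 (adjusted p = 0.0413) was small and lost its call without week 2, 3 or 4 (adjusted p of 0.0686, 0.19 and 0.177). All 5 of its probe sets had a difference above 0, and 3 of them were called.

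Of the 6 other proteases, Ctsz, a carboxypeptidase, came closest to the threshold. It had 12100, 14000, 15800 and 13000 in Pemt-/- liver, against 11600, 10900, 9530 and 10000 in Pemt+/+ liver, without overlap, and a difference of 0.38 ± 0.11 (adjusted p = 0.0516). A second Ctsz probe set, 1417869_s_at, was higher by 0.50 (adjusted p = 0.0107), while the remaining Ctsz probe set differed by 0.15 (adjusted p = 0.35). Ctsa, which shields other hydrolases in a complex, differed by 0.25 (adjusted p = 0.109), and its second, dimmer probe set by -0.62 (adjusted p = 0.15), so it has no single direction. The difference of Tpp1 (0.22), a tripeptidyl peptidase, did not pass the test.

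Ctsc (0.04), Ctsh (-0.07) and Ctsl (-0.09) had differences smaller than their SE or close to it. The dimmer probe sets of Ctsc differed by -0.26 and -0.32 and that of Ctsl by 0.20, and none passed the test (adjusted p of 0.429, 0.369 and 0.5). Ctsl (1451310_a_at), a broad endopeptidase, was bright in both genotypes, with 19200 to 23700 in Pemt-/- liver and 22100 to 24000 in Pemt+/+ liver. The 95% interval of its difference ran from -0.28 to 0.09, so a rise of the size seen for Ctsd lay outside it.

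**Figure D2:**
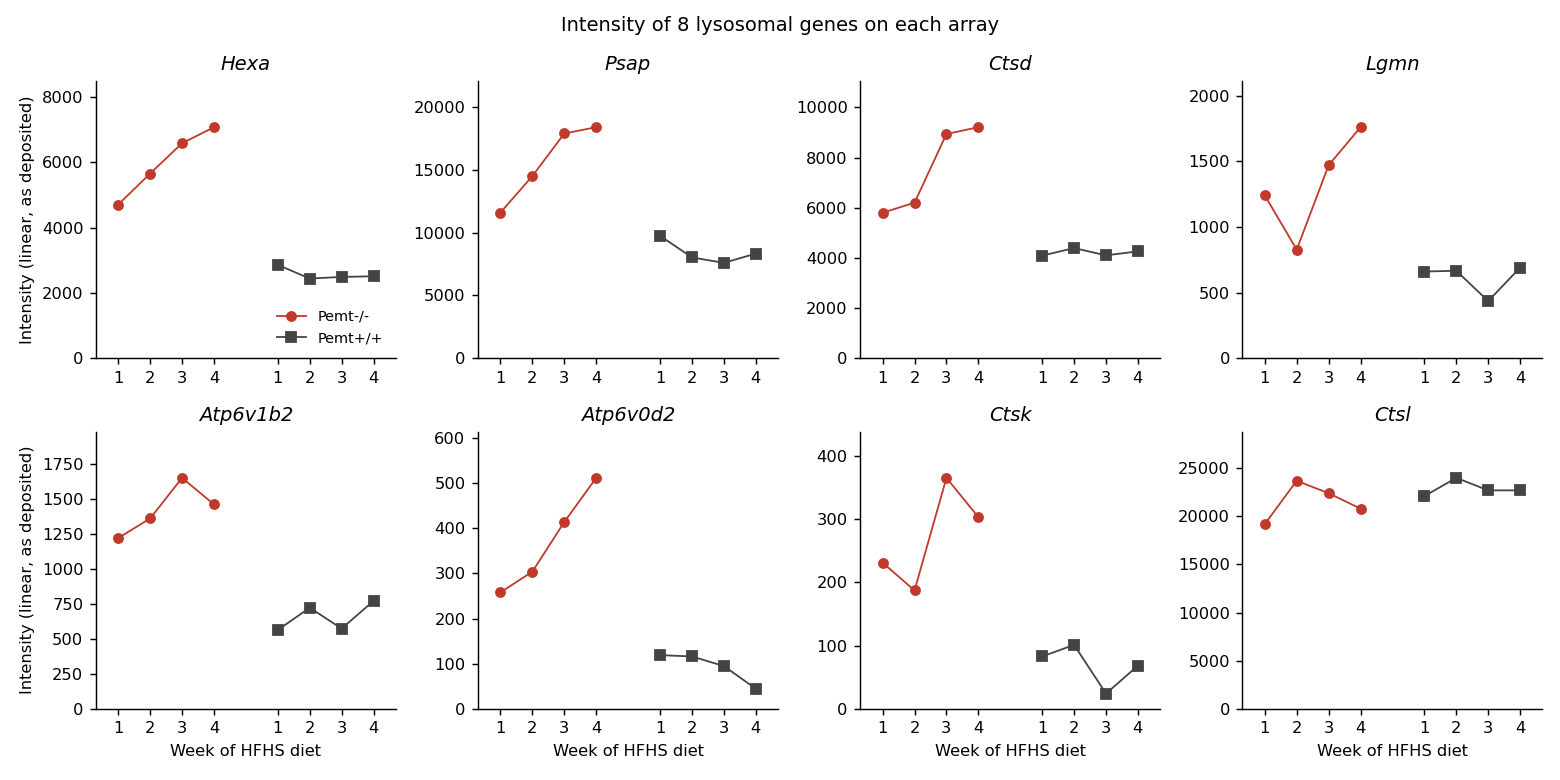
Linear intensity of 8 members on each of the 8 arrays, by week of HFHS chow, with Pemt-/- (circles) left of Pemt+/+ (squares) in each panel and every axis starting at 0. Hexa, Psap, Ctsd and Atp6v0d2 stand highest at week 4 in Pemt-/-, and the ranges of Ctsl overlap between genotypes.

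Among the 9 glycosidases and sulfatase, Hexa, Gusb, Galns and Gla were higher in Pemt-/- liver and 5 did not pass the test, with a median difference of 0.40. Hexa (1449024_a_at), the alpha subunit of beta-hexosaminidase, which removes hexosamines from GM2 ganglioside and other glycans, had 4710, 5660, 6590 and 7080 in Pemt-/- liver. In Pemt+/+ liver it had 2860, 2440, 2490 and 2510. Pemt-/- was higher with each later week while Pemt+/+ stayed level after week 1, and the ratio was 1.65, 2.32, 2.65 and 2.82 at weeks 1 to 4. Hexa had the smallest p of all 35 members, with a difference of 1.20 ± 0.13, 2.30-fold (limma, adjusted p = 0.00128).

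Gusb (1448124_at), beta-glucuronidase, had 2160, 2110, 2610 and 2310 in Pemt-/- liver, against 1480, 1340, 1190 and 1200 in Pemt+/+ liver. No Pemt-/- array came near the Pemt+/+ range, and the difference was 0.81 ± 0.12, 1.75-fold (adjusted p = 0.00367). The other Gusb probe set had a difference of 0.45 that did not pass the test (adjusted p = 0.0969).

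Galns (1448744_at), a sulfatase that acts on keratan sulfate and chondroitin sulfate, had 564, 607, 508 and 631 in Pemt-/- liver, against 363, 432, 357 and 362 in Pemt+/+ liver. The gap was present at every week and did not overlap, with a difference of 0.59 ± 0.12, 1.50-fold (adjusted p = 0.0141). Without week 3 or week 4 it no longer passed (adjusted p of 0.0556 and 0.078).

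Gla (1418248_at), alpha-galactosidase A, which cleaves globotriaosylceramide, had 206, 242, 266 and 281 in Pemt-/- liver, against 155, 158, 168 and 141 in Pemt+/+ liver. All Pemt-/- arrays were above all Pemt+/+ arrays, and the difference was 0.62 ± 0.16, 1.54-fold (adjusted p = 0.0318). Its call was fragile. It failed without any single week (adjusted p of 0.0553, 0.0517, 0.115 and 0.145 without weeks 1 to 4), and the mean of its probe sets gave 0.12 (adjusted p = 0.769), since a second, dim Gla probe set differed by -0.38 (adjusted p = 0.546).

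Glb1, beta-galactosidase, averaged 695 ± 114 in Pemt-/- liver and 522 ± 82.8 in Pemt+/+ liver (SD, n = 4 each), a difference of 0.40 ± 0.15 that did not pass the test (adjusted p = 0.109). The differences of Manba (0.16), Neu1 (0.14), Man2b1 (0.06) and Gaa (-0.04) were smaller and did not pass it either. Gaa, the acid alpha-glucosidase that degrades glycogen, had 1160 to 1640 in Pemt-/- liver and 1130 to 1520 in Pemt+/+ liver, with a 95% interval from -0.29 to 0.20.

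Among the 7 lipid-handling proteins, Psap, Npc2 and Asah1 were higher in Pemt-/- liver and Lipa, Ppt1, Npc1 and Smpd1 did not pass the test, with a median difference of 0.42. Psap (1415687_a_at), the precursor of the saposins that present sphingolipids to their hydrolases, had 11600, 14500, 17900 and 18400 in Pemt-/- liver, against 9750, 8030, 7590 and 8330 in Pemt+/+ liver. The genotypes were closest at week 1 and apart at every week, with ratios of 1.19, 1.80, 2.36 and 2.20. The difference was 0.87 ± 0.15, 1.83-fold (adjusted p = 0.00692), and the second Psap probe set was higher by 0.89.

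Npc2 (1448513_a_at), the soluble protein that hands cholesterol to Npc1 for export, had 5400, 7010, 7560 and 7480 in Pemt-/- liver, against 4920, 4020, 4460 and 4660 in Pemt+/+ liver. Week 1 showed a small gap (ratio 1.10), and the later 3 weeks had ratios of 1.60 to 1.74. Its difference was 0.59 ± 0.12, 1.51-fold (adjusted p = 0.0136). All 3 tested Npc2 probe sets were called higher, although the representative lost its call without week 3 or week 4 (adjusted p of 0.0804 and 0.0623).

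Npc1, the membrane protein that takes cholesterol from Npc2, had 1480 to 1800 in Pemt-/- liver and 1450 to 1860 in Pemt+/+ liver. Its difference was 0.00 ± 0.11, with a 95% interval from -0.26 to 0.25, so the pair of cholesterol-handling genes did not have the same call. The difference between them was not tested.

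Asah1 (1416735_at), acid ceramidase, had 3590, 2920, 3290 and 3280 in Pemt-/- liver, against 2610, 2320, 2220 and 2480 in Pemt+/+ liver. The groups did not overlap, and the difference was 0.44 ± 0.09, 1.36-fold (adjusted p = 0.0141), with ratios of 1.26 to 1.48 in the single weeks. The call was lost without week 3 or week 4 (adjusted p of 0.0982 and 0.0633). Smpd1, acid sphingomyelinase, which makes ceramide from sphingomyelin, averaged 2200 ± 17.7 in Pemt-/- liver and 2240 ± 155 in Pemt+/+ liver (SD, n = 4 each), with a difference of -0.02 (adjusted p = 0.923).

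Lipa, lysosomal acid lipase, was read differently by its 3 probe sets. The brightest, 1450872_s_at, had 7430, 7610, 8100 and 7440 in Pemt-/- liver, against 6460, 5560, 7780 and 6130 in Pemt+/+ liver, with a difference of 0.25 that did not pass the test (adjusted p = 0.111). The probe set 1423141_at had 2880, 2180, 2330 and 2210 in Pemt-/- liver, against 1600, 1250, 1680 and 1410 in Pemt+/+ liver, and was higher by 0.69 (adjusted p = 0.00387). The remaining probe set differed by -0.03 (adjusted p = 0.844), so no single direction can be given for Lipa. Ppt1, a thioesterase that removes palmitate from proteins, differed by 0.42 ± 0.15 and did not pass the test (adjusted p = 0.0981), and a dim probe set of the gene differed by -0.06 (adjusted p = 0.889).

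Among the 5 genes of the proton pump, Atp6v1b2, Atp6v0d2 and Atp6v1a were higher in Pemt-/- liver and Atp6ap1 and Atp6v0d1 did not pass the test, with a median difference of 0.51. Atp6v1b2 (1415814_at), the B subunit of the ATP-hydrolysing V1 sector in most tissues, had 1220, 1360, 1650 and 1460 in Pemt-/- liver, against 563, 722, 573 and 771 in Pemt+/+ liver. The gap was wide at all weeks from the outset, with ratios of 1.88 to 2.87. Its difference was 1.10 ± 0.13, 2.15-fold (adjusted p = 0.00158), and a second probe set was higher by 0.55.

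Atp6v0d2 (1434798_at), an isoform of the V0 d subunit known from osteoclasts and macrophages, had 258, 304, 414 and 512 in Pemt-/- liver, against 119, 116, 94.8 and 44.6 in Pemt+/+ liver. The ratio was larger with each week, from 2.17 at week 1 through 2.62 and 4.37 to 11.5 at week 4. The Pemt+/+ value of week 4 (44.6) was under the level at which probe sets were kept for testing, so that ratio has no firm size. The difference was 1.84 ± 0.31, 3.59-fold (adjusted p = 0.00629), and the second probe set of the gene was higher by 2.30. Atp6v0d1, the d isoform made in most tissues, had 4480 to 4970 in Pemt-/- liver and 3470 to 4430 in Pemt+/+ liver, without overlap, and a difference of 0.25 ± 0.10 that did not pass the test (adjusted p = 0.126).

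Atp6v1a (1422508_at), the catalytic A subunit, had 1790, 1800, 2150 and 2030 in Pemt-/- liver, against 1430, 1360, 1390 and 1250 in Pemt+/+ liver. No arrays overlapped, and the difference was 0.51 ± 0.11, 1.43-fold (adjusted p = 0.0139). Its other probe set differed by 0.12 (adjusted p = 0.488), the mean of its probe sets missed the threshold (adjusted p = 0.051), and so did the fit without week 3 or week 4 (adjusted p of 0.0863 and 0.0802). Atp6ap1, an accessory subunit, differed by 0.38 ± 0.12 (adjusted p = 0.0722).

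Among the 4 tested membrane proteins, Lamp2 was lower in Pemt-/- liver, none was higher and 3 did not pass the test, with a median difference of -0.09. Lamp2 (1416344_at), a major glycoprotein of the lysosomal membrane, had 14100, 16400, 15100 and 13900 in Pemt-/- liver, against 19100, 20200, 21900 and 20400 in Pemt+/+ liver. The highest Pemt-/- array was below the lowest Pemt+/+ array, and the difference was -0.46 ± 0.08, which was 1.37-fold lower in Pemt-/- (adjusted p = 0.00871). Without week 3 or week 4 it missed the threshold (adjusted p of 0.0725 and 0.0554).

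Lamp2 transcripts are known to differ at their last exon, and the array carried 4 probe sets for the gene. The probe set 1416343_a_at had 9240, 8170, 9260 and 7190 in Pemt-/- liver, against 11100, 12300, 13500 and 12800 in Pemt+/+ liver, and was lower by a log2 difference of -0.56 (adjusted p = 0.00908). The probe set 1434503_s_at had 9280, 12900, 11200 and 11900 in Pemt-/- liver, against 16100, 21300, 16000 and 18100 in Pemt+/+ liver, a difference of -0.66 (adjusted p = 0.00228). The last of them, 1428094_at, had 13600 to 17100 in Pemt-/- liver and 16400 to 18400 in Pemt+/+ liver and differed by -0.20, which did not pass the test (adjusted p = 0.15). All 4 had their lower values in Pemt-/-, and which transcripts each reads is not given in the files.

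Lamp1 (1415880_a_at), the companion glycoprotein, had 16200, 22300, 21200 and 20300 in Pemt-/- liver, against 16200, 15700, 16400 and 16900 in Pemt+/+ liver. Week 1 was level and the 3 later weeks lay above the Pemt+/+ range, but the difference of 0.29 ± 0.10 did not pass the test (adjusted p = 0.0861). Lamp1 and Lamp2 thus had differences of opposite sign, of which that of Lamp2 was called. Under quantile normalization, and under no other alternative that was run, Lamp1 was called higher as well (limma, adjusted p = 0.00861).

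Scarb2 (1454704_at), an integral protein of the lysosomal membrane that acts as a sorting receptor, had 6250, 6630, 6250 and 6240 in Pemt-/- liver, against 7390, 7540, 7640 and 7610 in Pemt+/+ liver. The groups were tight and did not overlap, yet the difference of -0.25 ± 0.08 missed the threshold (adjusted p = 0.0731). It passed under the centring on the tested probe sets (-0.41, adjusted p = 0.0237). Over all alternatives that were run the difference lay between -0.41 and -0.06, with an adjusted p of up to 0.668 (limma). The second Scarb2 probe set differed by 0.13 (adjusted p = 0.452). Mcoln1, the calcium channel of the lysosomal membrane, had 778 to 914 in Pemt-/- liver and 686 to 826 in Pemt+/+ liver and differed by 0.07 (adjusted p = 0.695), and its other probe sets by -0.03 and -0.08 (adjusted p of 0.915 and 0.846).

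**Figure D3:**
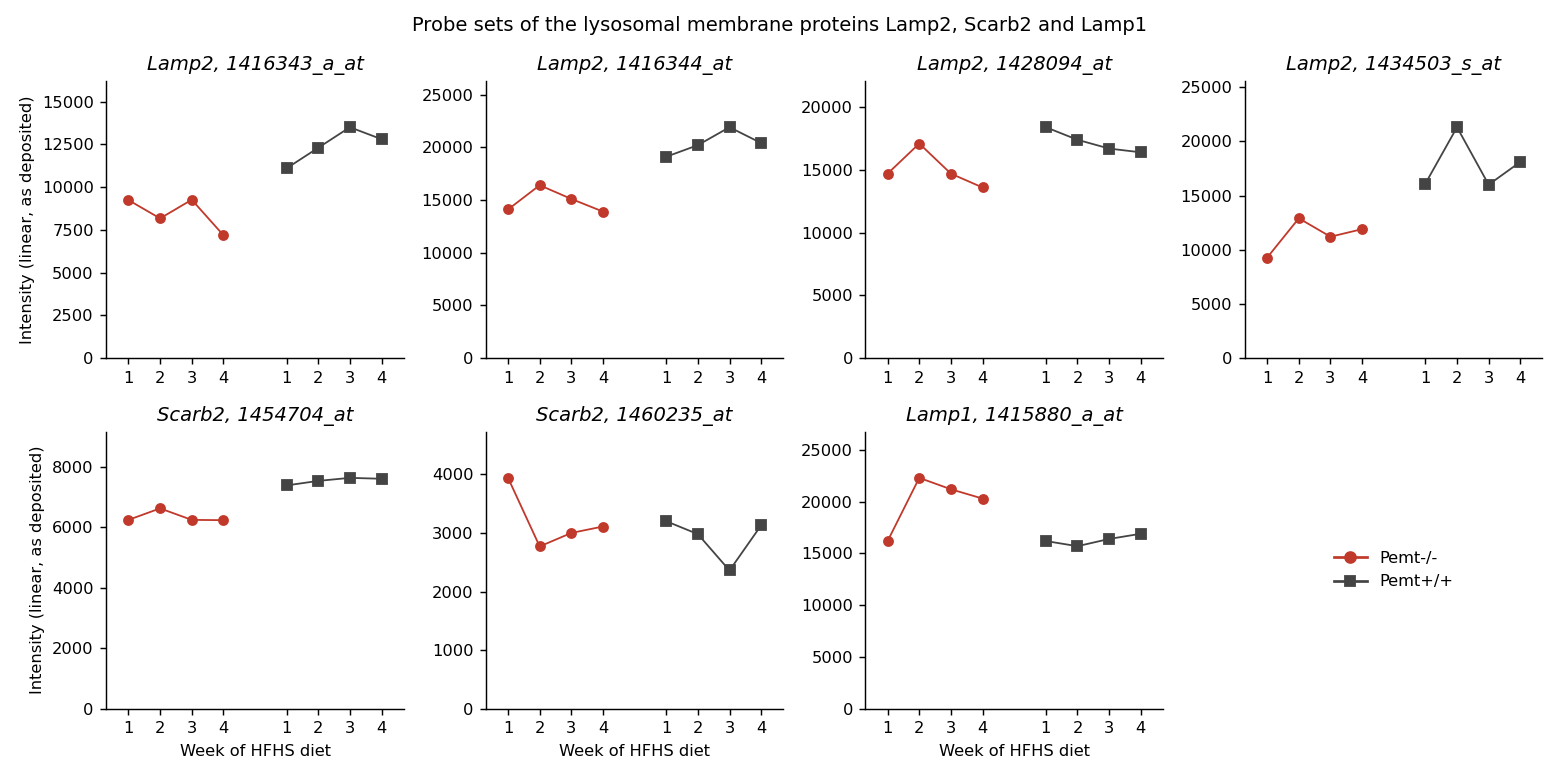
Linear intensity of the 4 Lamp2, 2 Scarb2 and 1 Lamp1 probe sets on each array, by week of HFHS chow, with Pemt-/- (circles) left of Pemt+/+ (squares) and axes starting at 0. The Pemt-/- circles of Lamp2 sit below the Pemt+/+ squares in 3 panels, and only at 1 week of 1428094_at do they reach the Pemt+/+ range.

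Across probe sets rather than genes, 23 of the 69 tested probe sets of the members were higher in Pemt-/- and 3 were lower, while 10.3% and 5.86% of all 27022 tested probe sets were higher and lower. No member with several tested probe sets (23 members) was called in both directions. Counting a gene by any of its probe sets, 16 members had at least 1 called higher, the 14 above with Ctsz and Lipa, and Lamp2 alone had any called lower. Such a count favours genes with several probe sets, and no share of all genes was counted in the same way.

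Of the 15 called members, Atp6v0d2, Atp6v1b2, Ctsd, Ctsk, Gusb, Hexa and Psap kept their call under every alternative that was run, including the fits with 1 week left out. Lgmn kept it in all but the fit without an intensity trend (adjusted p = 0.0523). That fit also lost Asah1, Atp6v1a, Ctsb, Lamp2 and Npc2 (adjusted p of 0.0714, 0.0629, 0.141, 0.0687 and 0.071). Centring on the tested probe sets lost Asah1, Ctsb, Gla and Npc2 (adjusted p of 0.0739, 0.235, 0.0729 and 0.0534). The number of members higher was 8 without week 3 and 8 without week 4, against 15 without week 1 and 13 without week 2. Counts over all probe sets under these fits are not given here, so this pattern is not read as a trait of the members.

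The second question was whether the genotypes drew apart over the weeks of HFHS chow. The median difference of the 35 members was 0.13 at week 1, 0.35 at week 2, 0.49 at week 3 and 0.35 at week 4, where all genes stayed between 0.00787 and 0.0344. The number of members above 0 was 23 at week 1 and 29 at each of the 3 later weeks. A ratio of 2 or more was reached by 3, 2, 8 and 7 members at weeks 1 to 4, beside 7.58%, 6.21%, 10.9% and 10.6% of all genes, and no member had a ratio of 0.5 or less at any week, beside 3.7%, 4.83%, 5.17% and 5.67% of all genes. Each week held 1 array per genotype, so these weekly values have no test.

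By role, the proton pump genes had medians of 0.32, 0.40, 0.62 and 0.69 at weeks 1 to 4. The proteases had 0.06, 0.35, 0.39 and 0.32, and the lipid-handling proteins had 0.20, 0.33, 0.56 and 0.40. For the membrane proteins the medians were -0.16, -0.01, -0.05 and -0.13.

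**Figure D4:**
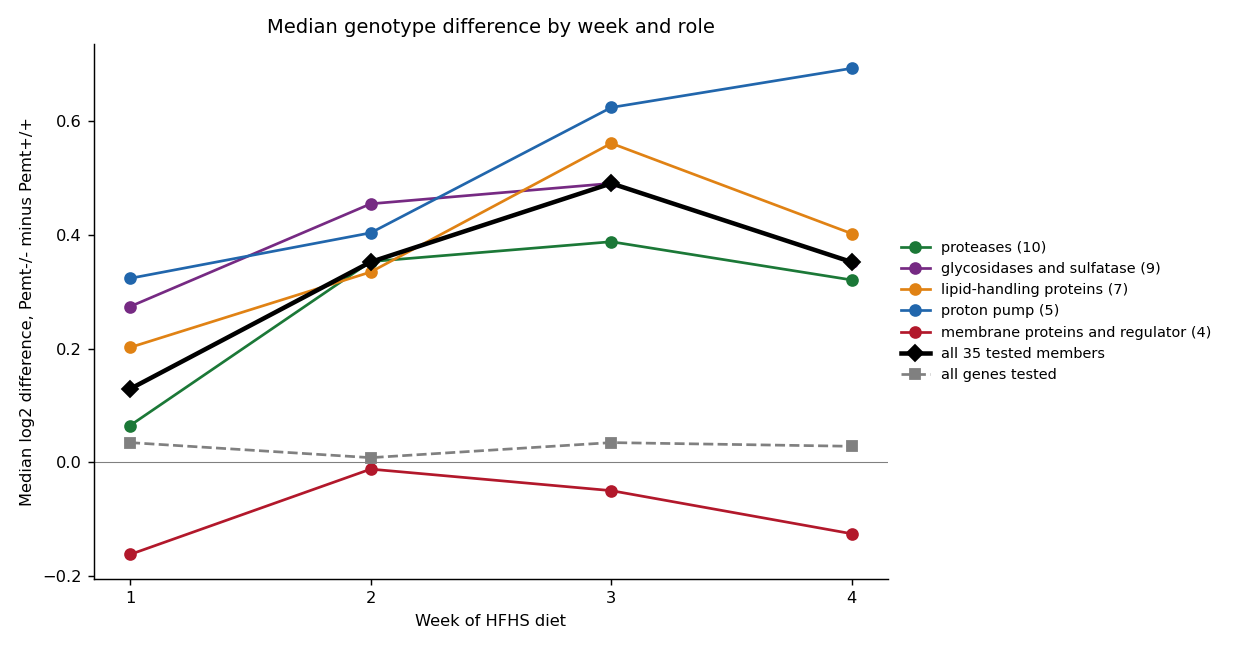
Median log2 difference of intensity, Pemt-/- minus Pemt+/+, at each week of HFHS chow for the members of each role, all 35 tested members and all 12949 genes tested. The members start at 0.13 and reach 0.49 at week 3, the dashed line of all genes stays near 0, and the membrane proteins stay below 0.

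The change per week was then fitted in each genotype as a slope on the log2 scale. No member passed the test for a difference of slopes, and 0 of the 27022 probe sets tested did (percent called 0; limma, lowest adjusted p of a member 0.498). At an unadjusted p under 0.05 there were 5 members, Ctsd, Hexa, Psap, Atp6v0d2 and Atp6ap1, beside 6.73% of all tested probe sets. The Pemt-/- slope was the greater in 29 of 35 members, beside 51.8% of all genes, with a median slope difference of 0.08 per week.

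Psap had slopes of 0.23 per week in Pemt-/- liver and -0.08 per week in Pemt+/+ liver, a slope difference of 0.30 ± 0.08 (adjusted p = 0.572). Hexa had 0.20 per week in Pemt-/- liver and -0.05 in Pemt+/+ liver, a slope difference of 0.25 ± 0.08 (adjusted p = 0.616). For Atp6v0d2 the slopes were 0.33 in Pemt-/- liver and -0.37 in Pemt+/+ liver, with a difference of 0.70 ± 0.16 (adjusted p = 0.498). Atp6v1b2 had slopes of 0.10 per week in both genotypes and a slope difference of 0.00 ± 0.11.

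Within Pemt-/- liver alone no member passed the test for a slope, beside 0.0296% of probe sets rising and 0.074% falling. At an unadjusted p under 0.05 there were 7 members, with slopes above 0 for Ctsd, Hexa, Npc2, Psap and Atp6v0d2 and below 0 for Ctsc and Ctsh, beside 10.3% of all tested probe sets. Ctsc, a dipeptidyl peptidase that activates granule proteases, had 8520, 8020, 5390 and 5300 in Pemt-/- liver and 8110, 6980, 4790 and 6450 in Pemt+/+ liver. Its values at weeks 3 and 4 were below that of week 1 in both genotypes. In Pemt+/+ liver no member passed the test for a slope either (percent called 0), and Atp6v0d2 alone had an unadjusted p under 0.05, beside 5.45% of all tested probe sets.

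A list of 58 further lysosomal genes was drawn up by role, with earlier results of these data known. It was read from the same fit, and 52 of the genes were tested. In Pemt-/- liver 18 of the 52 were higher and none was lower (limma; 12.6% and 7.51% of all genes, as above), with a median difference of 0.24. The count of 18 depended on the fit. It was 5 without week 3, 7 without week 4 and 6 without an intensity trend, and centring on the tested probe sets gave 10 higher and 4 lower. For the fits without a week or a trend, no share over all genes is given beside these counts.

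Of 20 soluble enzymes and activators 7 were higher. Ctss, a cathepsin of antigen-presenting cells, had 6330, 5790, 12600 and 13900 in Pemt-/- liver, against 3730, 4180, 2700 and 3100 in Pemt+/+ liver, a difference of 1.40 (adjusted p = 0.0121). Galc, which removes galactose from galactosylceramide, was higher by 0.86 (adjusted p = 0.0087). Arsb, a sulfatase of dermatan sulfate, was higher by 0.61 (adjusted p = 0.0063), and Ggh, a gamma-glutamyl hydrolase that acts on folates, by 0.58 (adjusted p = 0.0119).

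Of 12 further membrane proteins and transporters 4 were higher. Cd68, a lysosomal glycoprotein of macrophages, had 775, 775, 1480 and 1460 in Pemt-/- liver, against 236, 354, 213 and 221 in Pemt+/+ liver. Laptm5, found mainly in blood-derived cells, had 1650, 1960, 3140 and 3620 in Pemt-/- liver, against 682, 682, 434 and 551 in Pemt+/+ liver. Their differences were 2.02 for Cd68 (adjusted p = 0.00198) and 2.06 for Laptm5 (adjusted p = 0.00177).

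Slc11a1, a metal transporter of phagosomes, was higher by 1.15 (adjusted p = 0.00721) and Ostm1, a partner of a lysosomal chloride transporter, by 0.44 (adjusted p = 0.047). Cd68, Laptm5 and Slc11a1 are known mainly from macrophages and other blood cells. The 8 other membrane proteins did not pass the test.

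Of 12 further pump subunits 5 were higher. Those with the smallest p were Atp6v1c1 (0.54, adjusted p = 0.00887), Atp6v0e (0.52, adjusted p = 0.0105), Atp6ap2 (0.47, adjusted p = 0.012) and Atp6v1e1 (0.42, adjusted p = 0.0233). Atp6v1c1, a stator subunit, had 2390, 2400, 3220 and 3350 in Pemt-/- liver, against 1860, 1710, 1920 and 2220 in Pemt+/+ liver, without overlap.

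Among the 5 genes that sort enzymes to the lysosome, Igf2r, the large receptor for mannose phosphate, was higher by 0.53 (adjusted p = 0.0131) and the other 4 did not pass the test. Of the 3 relatives of Tfeb, Tfe3 was higher, with 615, 757, 932 and 866 in Pemt-/- liver against 570, 545, 451 and 428 in Pemt+/+ liver (0.65, adjusted p = 0.034), while Mitf (0.31) and Tfec (0.28) did not pass it. Among 15 autophagy genes, Sqstm1, a cargo receptor, was higher by 0.44 (adjusted p = 0.0166) and Becn1, of the initiation complex, by 0.39 (adjusted p = 0.0402). Atg3, which attaches lipid to LC3 proteins, was lower by a difference of -0.36 (adjusted p = 0.0481), and the median of the 15 was -0.11. These counts, 2 of 15 higher and 1 lower, were close to the shares over all genes (12.6% and 7.51%).

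Some marker lists of other liver cells also differed between the genotypes, and not all in the same direction. In Pemt-/- liver all 10 stellate cell markers were higher (12.6% of all genes tested). Their summed intensity was 45200 to 61000 against 16100 to 21500 in Pemt+/+ liver. The 3 measured neutrophil markers summed to 786 to 1450 in Pemt-/- liver and 104 to 442 in Pemt+/+ liver, and 1 of them, Csf3r, passed the filter only through Pemt-/-. Of 11 hepatocyte markers 9 were lower (7.51% of all genes tested), with a median difference of -0.40.

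The macrophage sum was 48300, 41400, 55100 and 57800 at weeks 1 to 4 in Pemt-/- liver and 24800, 24700, 17500 and 18800 in Pemt+/+ liver. Adgre1, the defining marker of the list, had 1340, 916, 1120 and 1140 in Pemt-/- liver, against 782, 722, 616 and 628 in Pemt+/+ liver. The sum does not stand for every marker. Marco and Cd5l, named after their values were seen, were higher in Pemt-/- liver by 1.51 and 0.56 (limma, adjusted p of 0.00931 and 0.0271). Both had falling slopes in Pemt-/- liver (limma, adjusted p of 0.0243 and 0.0498). Their slopes in Pemt+/+ liver were -0.37 and -0.19 per week and did not pass the test. Clec4f and Vsig4 did not pass the test between genotypes. The macrophage markers tested had a median difference of 1.46, and the members one of 0.37. The 1.46 counts Trem2 and Mmp12, which passed the filter only through Pemt-/-, so the medians are not a like comparison. Endothelial markers summed to 3390 to 7630 in Pemt-/- liver and 5900 to 8680 in Pemt+/+ liver. Of the 6 endothelial markers 3 were lower in Pemt-/- (7.51% of all genes tested) and none was higher. Lymphocyte markers summed to 644 to 795 in Pemt-/- liver and 479 to 594 in Pemt+/+ liver. Cholangiocyte markers summed to 633 to 980 in Pemt-/- liver and 409 to 641 in Pemt+/+ liver. The part of any of these cell types in the differences of the lysosomal genes was not tested.

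**Figure D5:**
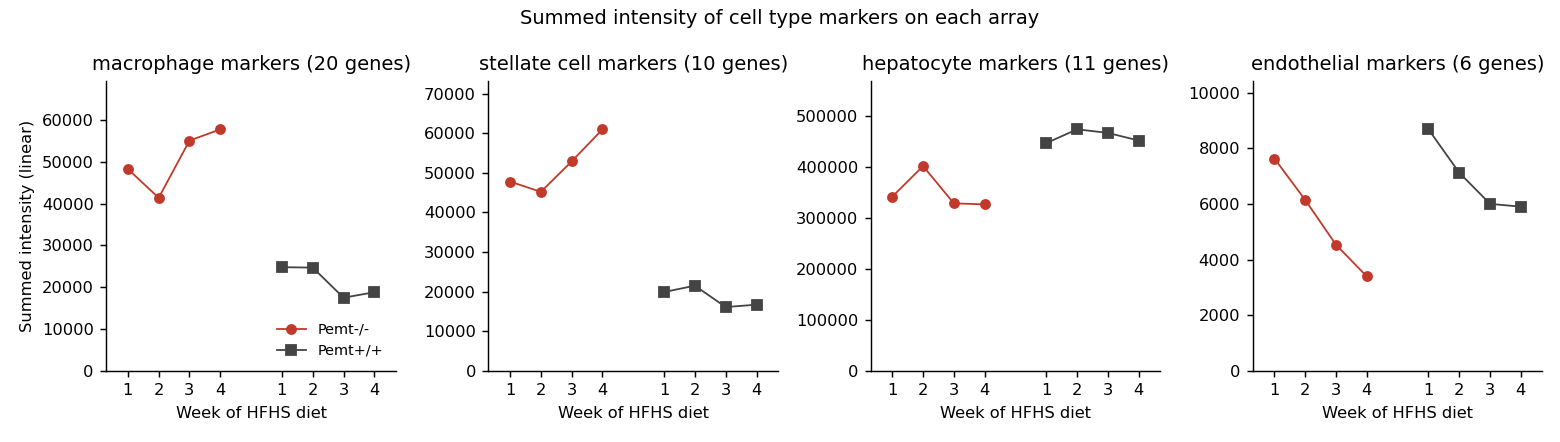
Summed linear intensity of macrophage (20 genes), stellate cell (10), hepatocyte (11) and endothelial (6) markers on each array, by week of HFHS chow, with Pemt-/- (circles) left of Pemt+/+ (squares) and axes starting at 0. Macrophage and stellate cell sums lie above those of Pemt+/+ on every Pemt-/- array, hepatocyte sums lie below on every array, and endothelial sums overlap.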

How the data were processed

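Total RNA of liver was labelled with biotin and hybridised to Affymetrix arrays by the study's authors. The authors deposited 1 linear intensity per probe set and array (45101 rows), made with Affymetrix Expression Console according to the submitters' processing notes. The sources used here do not give its version, the summary method or detection calls. Arrays were scaled to a trimmed mean of 500 (2% left out at each end).

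The 64 control probe sets were left out, and 34945 of the remaining 45037 had 1 annotated gene, 932 several and 9160 none. Intensities were taken as log2(intensity + 16). The 27022 probe sets (12949 genes) above the 40th percentile of the mean were tested in limma 3.58.1 (R 4.3.3) with week as a factor and genotype, eBayes with an intensity trend, and Benjamini-Hochberg adjustment over all of them. Calls are at an adjusted p under 0.05. A second model fitted a slope on week in each genotype. Folds are on the log2(intensity + 16) scale and understate changes of dim genes. SDs over 4 arrays include the change between weeks.

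The 36 members and the other lists were chosen with earlier results of these data known. Per-array values are given for called members, other lists by up to 4 smallest p in each role. Each fit was tested on simulated data. The slope differences simulated were larger than that of any member, so the simulation does not show how often smaller ones would be found. Weeks were kept as the block because each held 1 array per genotype. Same-week deviations correlated between -0.03 and 0.11. Some genes of the further lysosomal list are not reported here. The number of arrays limits the precision.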

Additional observations from a re-analysis of the deposited data

Results flagged for a closer look

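In 5 of the 72 groups of 4 arrays examined (36 members in each genotype), 1 array stood far from the other 3, judged by its gap over the range of the group. Chance gives such an array in about 1 group in 20. Lgmn was lowest at week 3 in Pemt+/+ liver, at 435, where the other weeks had 660 to 690. Mcoln1 was lowest on the same array, at 686, against 805 to 826 at the other weeks of Pemt+/+. Galns was highest at week 2 in Pemt+/+ liver, at 432, with 357 to 363 at the other weeks. In Pemt-/- liver, Gaa was highest at week 2, at 1640, with 1160 to 1200 at the other weeks, and Scarb2 was highest on that array too, at 6630, with 6240 to 6250 at the other weeks. None of these arrays was from week 1. No difference of slopes between the genotypes passed the test.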

How the results depend on the processing

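Of the 15 called members, 7 kept their call under every alternative, and no called member changed direction. Without an intensity trend in eBayes, 9 members were higher and 0 lower, and 6 of the other lysosomal genes were higher. Without the week as a replicate block, 16 members were higher and 2 lower (Scarb2 joined Lamp2), and 1 other lysosomal gene was lower. Median centring over the tested probe sets, added after seeing the data, left 10 members higher and 2 lower, 10 other lysosomal genes higher and 4 lower, and a member median of 0.22. With 1 week left out in turn, which leaves 6 arrays, 8 to 15 members were higher and 0 to 1 lower, 5 to 15 other lysosomal genes were higher and 0 to 1 lower, and the member median lay between 0.26 and 0.43. Quantile normalization, median centring over all probe sets, pseudocounts of 1 and 64, other filters and the mean of each gene's probe sets gave 12 to 16 members higher and 1 lower. Among these alternatives, counts over all probe sets are given only for the centring over the tested probe sets. For the others a changed count is not read as a trait of the members. No alternative called a slope difference in a member. Dim genes such as Tfeb, Ctsk and Atp6v0d2 in Pemt+/+ liver lay near the low end of the intensity scale, which limits their folds.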
